A study of Mus musculus with 6 samples.

Results

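The AP-1 genes described here are 8 transcription factor genes, Fos, Fosb, Fosl2, Jun, Junb, Jund, Atf3 and Maff, chosen by symbol from the deposited count table of 20620 genes. All 8 were found, and all 8 were among the 20604 genes tested. They were measured in whole hippocampus from 6 male C57BL/6J mice, with 1 RNA-seq library per mouse. The 3 n-Braf mice carried Braf Q241R/+ with a CaMKII-Cre transgene and were 33, 32 and 34 weeks old. The 3 control mice carried Braf Q241R Neo/+, the same mutant allele with its Neo cassette still present and no Cre in the label, and were 32, 32 and 31 weeks old. Both groups are therefore heterozygous for the Q241R allele, and no wild-type mice were analysed here. The study design places expression of the mutant kinase in mature excitatory neurons, so tissue RNA mixes the cells that express it with cells that do not. In such bulk RNA, fewer cells of a type and less RNA per cell cannot be told apart. Cre and loss of the Neo cassette come together in n-Braf mice, and their effects cannot be told apart from that of the mutant protein.

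AP-1 is a dimer of basic leucine zipper (bZIP) proteins. FOS family proteins cannot pair with each other and bind DNA with a JUN family partner, while JUN proteins can also pair among themselves. BRAF passes the RAS signal on towards ERK. Active ERK phosphorylates ternary complex factors that sit with SRF on the Fos promoter, and CREB binds cyclic AMP response elements (CREs) there, so Fos and Fosb are transcribed within minutes of neuronal firing. In the hippocampus these genes are widely used as marks of recent neuronal activity, and a shortened, stable FOSB protein made by alternative splicing accumulates after repeated stimulation. The counts are per gene and do not separate that splice form from full-length Fosb.

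The promoters of Fos and Fosb, the members with the largest fitted increases, and of their partners Jun and Junb, are shown to describe their CRE content. Fos and Fosb were picked by the fold changes of these data, and no link between CRE content and fold change was tested. Each is the stretch of 250 bases before the transcription start in RefSeq on GRCm38.p6, printed in the direction of transcription. Capitals mark TGACG, the short form of a CRE.
Fos (chr12:85473640-85473889, plus strand): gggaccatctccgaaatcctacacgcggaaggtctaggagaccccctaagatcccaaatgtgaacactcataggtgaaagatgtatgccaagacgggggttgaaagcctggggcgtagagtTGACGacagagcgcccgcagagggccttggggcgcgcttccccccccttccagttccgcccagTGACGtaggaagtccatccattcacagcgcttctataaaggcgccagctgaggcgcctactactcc
Fosb (chr7:19310046-19310295, minus strand): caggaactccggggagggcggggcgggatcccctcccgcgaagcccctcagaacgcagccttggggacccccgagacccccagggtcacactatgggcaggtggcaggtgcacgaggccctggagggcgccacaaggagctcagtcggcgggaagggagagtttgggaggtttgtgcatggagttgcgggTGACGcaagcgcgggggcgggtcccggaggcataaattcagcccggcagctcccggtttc
Junb (chr8:84978749-84978998, minus strand): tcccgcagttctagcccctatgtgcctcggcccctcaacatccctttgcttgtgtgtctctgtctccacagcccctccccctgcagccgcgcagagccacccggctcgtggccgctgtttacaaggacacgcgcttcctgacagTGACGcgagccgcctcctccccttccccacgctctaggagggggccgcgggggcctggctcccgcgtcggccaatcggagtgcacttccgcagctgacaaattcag
Jun (chr4:95052223-95052472, minus strand): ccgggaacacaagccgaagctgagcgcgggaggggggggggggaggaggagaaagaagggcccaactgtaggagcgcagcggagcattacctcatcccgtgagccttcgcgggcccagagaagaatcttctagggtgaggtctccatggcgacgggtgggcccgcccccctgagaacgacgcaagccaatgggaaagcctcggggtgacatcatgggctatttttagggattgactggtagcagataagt
Counted from the start, the Fos window held TGACG at -129 to -125 and again at -66 to -62. The Fosb window held it at -60 to -56 and the Junb window at -106 to -102, while the Jun window had no match. The search covered both strands and also included TGANTCA, the AP-1 site itself, the full CRE TGACGTCA, which contains TGACG on both strands, and the CArG box bound by SRF. None of these 3 occurred in the 4 printed windows. Sites outside those 250 bases were not searched, so this does not mean that a whole promoter lacks them. Over all 32851 promoter windows of the same length in the RefSeq table, 17.8% held TGACG, 6.75% TGANTCA, 1.55% TGACGTCA and 1.47% a CArG box. Windows were found for all 8 members, and in 2 others TGACG also occurred: in Atf3 near its start, and in Maff, where 1 of 3 annotated starts has a full CRE. A match is a description of letters and was not tested as a binding site.

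Total expected counts were 30152839 to 31832245 in n-Braf and 25227112 to 27608256 in the controls. Braf itself was at 185, 184 and 205 CPM (the read count relative to the TMM-scaled library size) in n-Braf 1, 2 and 3, against 116, 123 and 116 CPM in control 1, 2 and 3, with an edgeR adjusted p of 0.0533. The 14 excitatory neuron markers of the hippocampus were all among the genes tested, and Camk2a averaged 2489 ± 384 CPM in n-Braf against 2221 ± 102 CPM in controls (SD, n = 3 each). Controls 1 and 2 stood apart by their choroid plexus markers. The 13 of 16 listed markers that could be tested summed to 93.0 to 112 CPM in n-Braf, against 3658 CPM in control 1, 2062 CPM in control 2 and 143 CPM in control 3. Ttr, the transthyretin gene that defines this tissue, was at 3.32, 12.9 and 1.06 CPM in n-Braf, against 2036, 1121 and 13.8 CPM in control 1, 2 and 3. The 7 tested ependymal markers had a median log2 fold change of -1.28, the 8 leptomeningeal ones -0.51 and the 10 oligodendrocyte ones -0.31, all 10 of the last below 0. The medians were -0.16 for 9 dentate granule, 0.13 for 14 excitatory neuron, 0.09 for 8 interneuron, 0.14 for 12 neocortex, 0.03 for 9 astrocyte, -0.07 for 9 microglia and 0.01 for 9 endothelial and mural markers, and none of these markers passed over all genes. The n-Braf libraries also differed among themselves. Dentate granule markers summed to 370, 395 and 636 CPM in n-Braf 1, 2 and 3, and leptomeningeal ones to 104, 78.0 and 33.7 CPM.

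Of the 8 members, 0 passed an adjusted p of 0.05 with edgeR's quasi-likelihood test. Over all genes tested 0 passed as well (0%). A fitted log2 fold change above 0 was found in 5 of the 8 members, against 49.0% of all genes. Their median log2 fold change was 0.03, beside a median of -0.0042 over all genes. At an unadjusted p of 0.05, 1 member was reached, Fosb, where 6.82% of all genes were in either direction and 3.09% as higher in n-Braf. DESeq2, which called 79 genes in all, and limma-voom, which called 0, also called 0 members. The authors' deposited table gives 29 genes an adjusted p under 0.05, and 0 of them are members.

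Fosb, the FOS family gene whose short splice form is long lived in neurons, had the largest fold change of the 8. The gene (ENSMUSG00000003545) lies on the minus strand of chromosome 7 at 19302696 to 19310051 in GENCODE M21 on GRCm38. Its level was 10.6, 13.0 and 9.81 CPM in n-Braf 1, 2 and 3, against 6.64, 7.37 and 9.27 CPM in control 1, 2 and 3. The groups did not overlap: the lowest n-Braf library lay just above the highest control, control 3. A gene whose n-Braf libraries all lay above the controls was found in 6.09% of all genes, and Fosb was the 1 such member of 8. It averaged 11.1 ± 1.69 CPM in n-Braf against 7.76 ± 1.36 CPM in controls (SD, n = 3 each), and the fitted fold was 1.44. The log2 fold change was 0.52 with a standard error of 0.16 and a 95% interval of 0.16 to 0.89. With edgeR's quasi-likelihood test the unadjusted p was 0.0104, and adjusted over all genes it was 0.581. Controls 1 and 2, the libraries with choroid plexus markers, were also those with the lowest Fosb. Against control 3 alone the log2 fold change was 0.26 with an unadjusted edgeR p of 0.236, where the lone control is assumed to vary like n-Braf. It was 0.27 when the choroid plexus level entered the fit as a covariate, and 0.86 with age as the covariate. The plexus level was high only in controls 1 and 2, so that fit is not a separate check from control 3 alone. Age overlapped between the groups but ran higher in n-Braf, so it is only partly separable from group. In the authors' deposited table the same counts give Fosb a log2 fold change of 0.52 and an adjusted p of 0.516.

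Fos, the founding member of the family, varied more between mice than genes of its abundance did. It lies on the plus strand of chromosome 12 at 85473890 to 85477273 (ENSMUSG00000021250). It was at 17.8, 16.1 and 11.8 CPM in n-Braf 1, 2 and 3, against 13.4, 6.88 and 16.6 CPM in control 1, 2 and 3. The groups overlapped, since control 3 lay above n-Braf 2 and 3 and control 2 lay far below the other 5 libraries. The highest control was 2.41 times the lowest, and the highest n-Braf library 1.51 times the lowest. The log2 fold change was 0.31 (SE 0.28, 95% interval -0.32 to 0.94, edgeR adjusted p = 0.905). It rested on 1 library: without control 2 it was 0.02, and without control 3 it was 0.59 with an unadjusted p of 0.0665 from the same edgeR test. Against control 3 alone it was -0.12, and it was -0.05 with the choroid plexus covariate. With age as a covariate it was 0.79, with an unadjusted edgeR p of 0.0595. The spread of Fos beyond counting error (its biological coefficient of variation) was 24.8%, against 14.3% for genes of its abundance, while counting error was 5.01% at its mean count.

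Fosl2, which encodes FRA-2, is a FOS relative with slower induction. It lies on chromosome 5 at 32135801 to 32157842. It was at 44.9, 63.6 and 48.9 CPM in n-Braf 1, 2 and 3, against 37.9, 54.5 and 56.4 CPM in control 1, 2 and 3. The lowest and the highest libraries belonged to different groups, control 1 and n-Braf 2. Of the other 4 libraries, both n-Braf ones lay below both controls. The log2 fold change was 0.08 (SE 0.17, 95% interval -0.30 to 0.46), and it was -0.08 when either control 1 or n-Braf 2 was left out.

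**Figure D1:**
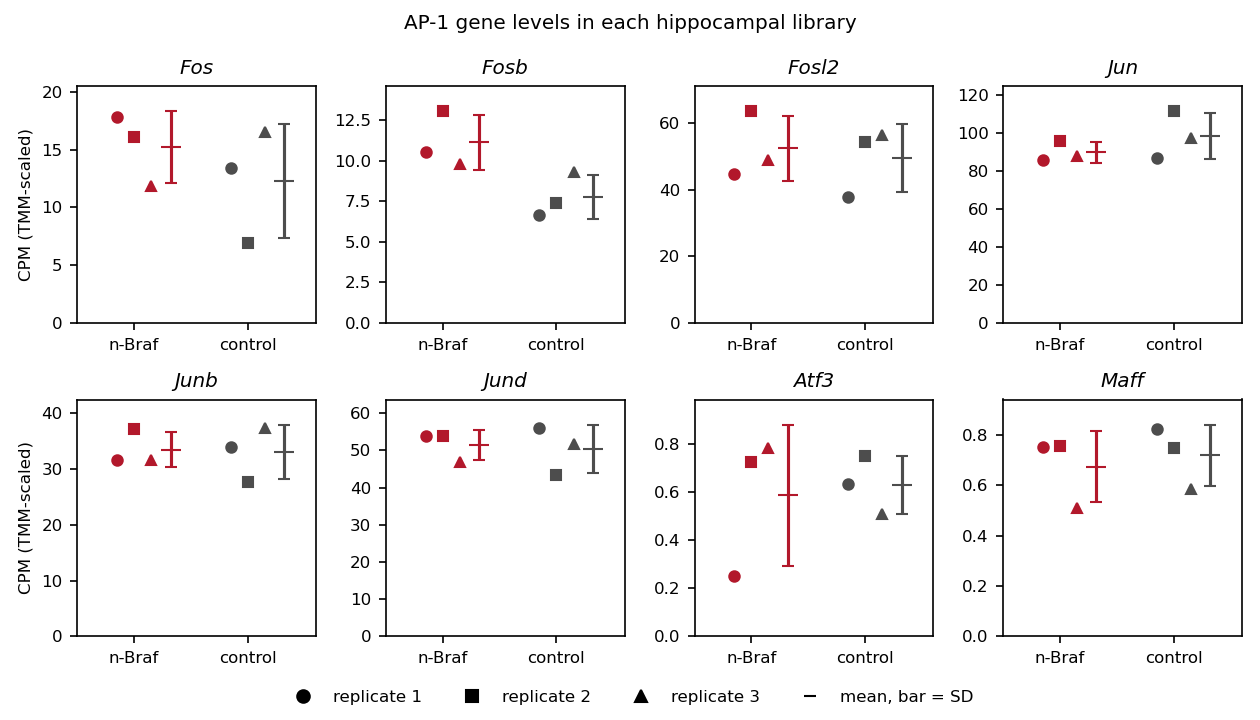
Level of each AP-1 gene in TMM-scaled CPM (vertical axes starting at 0) in the 3 n-Braf and the 3 control libraries. Marker shapes give the replicate number, and the bar beside the points is the mean with its SD. Fosb is the member whose groups do not overlap, with n-Braf between 9.81 and 13.0 CPM and controls between 6.64 and 9.27 CPM.

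Among the JUN family, Jun was the member with the lowest fold change. JUN is the classical FOS partner, activated through phosphorylation by JNK kinases. The gene occupies 95049034 to 95052222 on the minus strand of chromosome 4. Its level was 85.6, 96.0 and 87.8 CPM in n-Braf 1, 2 and 3, against 86.9, 111 and 97.2 CPM in control 1, 2 and 3. The groups overlapped, and control 2, the lowest library for Fos, was the highest for Jun. The log2 fold change was -0.13 (SE 0.09, 95% interval -0.34 to 0.08, edgeR adjusted p = 0.859). Without control 1 it was -0.22 and without control 2 it was -0.04. The interval corresponds to between 0.788 and 1.05 times the control level.

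Junb, an activity-induced JUN protein that activates transcription less strongly than JUN, lies on chromosome 8 at 84974484 to 84978718. It was at 31.6, 37.1 and 31.7 CPM in n-Braf 1, 2 and 3, against 34.0, 27.7 and 37.3 CPM in control 1, 2 and 3. The controls held both the lowest and the highest library. Its fold was 1.01, with a 95% interval of 0.843 to 1.22. Leaving out control 2 gave a log2 fold change of -0.09, against 0.02 with all libraries.

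Jund, the JUN family member that is expressed steadily rather than induced, lies on chromosome 8 at 70698949 to 70700616. It was at 53.8, 54.0 and 46.9 CPM in n-Braf 1, 2 and 3, against 56.1, 43.3 and 51.7 CPM in control 1, 2 and 3. Here too the controls spanned the n-Braf libraries. Its fold was 1.02, with a 95% interval of 0.872 to 1.20. For Jun, Junb and Jund the intervals are the narrowest of the 8, and their spread between mice ranked in the lower part of all genes, at the 21.3, 34.5 and 26.2 percentile.

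Reads of these genes can be hard to place. The exons of Jun overlap those of the antisense gene Junos, the exons of Junb those of Prdx2 on the opposite strand, and the exons of Jund those of Gm11175. The kit keeps strand, but the strand setting of the counting is not given in the sources used here. Jun and Junos had whole expected counts in every library, so they show no sharing of reads by fractions. How reads were split between Junb and Prdx2 is uncertain. Prdx2 averaged 70.7 ± 4.17 CPM in n-Braf against 72.0 ± 5.18 CPM in controls (SD, n = 3 each). Gm11175 averaged 11.3 ± 1.46 CPM in n-Braf against 11.1 ± 1.25 CPM in controls, and Junos 1.33 ± 0.345 CPM in n-Braf against 1.01 ± 0.460 CPM in controls. Jund, Junb and Maff had expected counts that were not whole numbers, a sign that RSEM shared some of their reads with other genes. For Jund that gene was Gm11175. Their fractions made up a whole number in every library, as with 1720.42 and 352.58 expected counts in n-Braf 1. The split between Jund and Gm11175 is thus an RSEM estimate.

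Atf3 and Maff were near the limit of what this depth resolves. ATF3 is a stress-induced bZIP factor that marks injured neurons, and MAFF is a small MAF protein without an activation domain. Atf3, on chromosome 1 at 191170296 to 191218039, had 8, 23 and 23 expected counts in n-Braf 1, 2 and 3, against 17, 20 and 13 in control 1, 2 and 3. Maff, on chromosome 15 at 79346621 to 79359076, had 24.5, 24.0 and 15.04 expected counts in n-Braf, against 21.9, 20.0 and 14.8 in the controls. Both genes overlapped between groups, and n-Braf 1 was the lowest library for Atf3. Counting error alone was 24.0% for Atf3 and 22.3% for Maff at their mean counts. The 95% intervals of the log2 fold change ran from -1.14 to 0.92 for Atf3 and from -0.84 to 0.66 for Maff. These intervals include the spread between mice as well as counting error, and differences within them are compatible with these libraries.

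**Figure D2:**
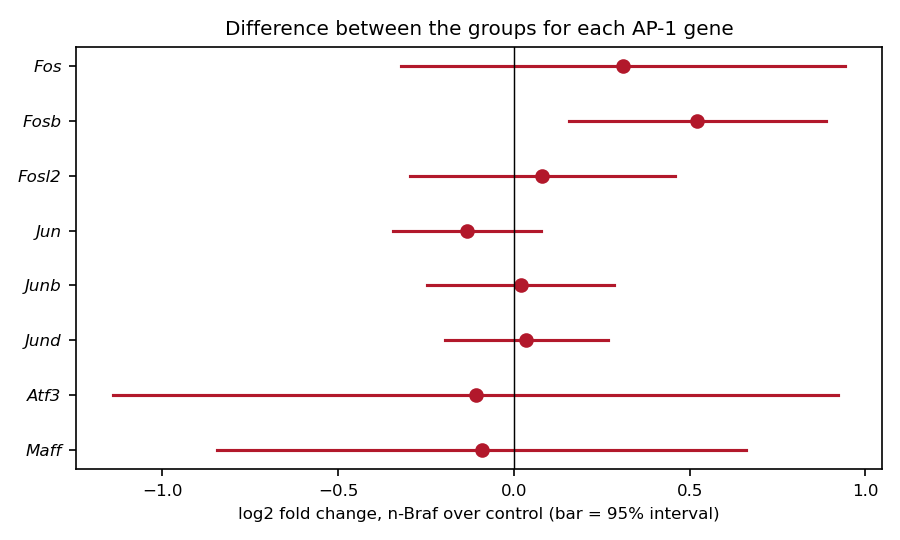
Fitted log2 fold change of n-Braf over control for each AP-1 gene (points) with its 95% interval (bars). The interval of Fosb, 0.16 to 0.89 before any adjustment for the number of genes, is the 1 interval that lies wholly above 0.

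Apart from Jund and Jun at the top, the order of mean levels was the same in both groups. Scaled per kilobase of exon, so that genes can be set against each other, Jund averaged 30.9 ± 2.42 CPM per kilobase in n-Braf and 30.2 ± 3.90 in the controls, and Jun 28.2 ± 1.73 in n-Braf and 30.9 ± 3.85 in the controls (SD, n = 3 each). Jund and Jun overlapped and shared the top place. The Jund level leaves out the reads that RSEM assigned to Gm11175, so its place beside Jun depends on that split. Junb followed at 14.5 ± 1.39 in n-Braf and 14.3 ± 2.12 in the controls. Fos, at 6.47 ± 1.31 in n-Braf and 5.22 ± 2.10 in the controls, overlapped with Fosl2, at 5.42 ± 1.02 in n-Braf and 5.13 ± 1.05 in the controls. Fosb was lower, at 1.78 ± 0.270 in n-Braf and 1.24 ± 0.217 in the controls. Atf3 and Maff overlapped at the bottom, where no library reached 0.364 CPM per kilobase. Length here is the union of all annotated exons, so a gene with long rarely used exons is placed too low.

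Summed per kilobase, the 3 JUN genes gave 72.8, 78.6 and 69.4 CPM per kilobase in n-Braf 1, 2 and 3, against 75.7, 72.9 and 77.7 in control 1, 2 and 3. The 3 FOS genes gave 13.9, 15.5 and 11.6 in n-Braf 1, 2 and 3, against 10.7, 9.74 and 14.4 in control 1, 2 and 3. By this scaling the JUN sum exceeded the FOS sum in every library, by 5.43 ± 0.471 times in n-Braf and 6.66 ± 1.10 times in the controls (SD, n = 3 each). The size of this ratio depends on the annotated exon lengths. These were 9680 bases for Fosl2 and 6243 for Fosb, against 3189 for Jun, 2301 for Junb and 1668 for Jund. It also depends on the split of reads between Jund and Gm11175. Control 3 fell within the n-Braf range of the JUN to FOS ratio, which was 5.08 to 5.96, and controls 1 and 2 lay above it. The part of Fosb in the FOS sum was 12.1%, 13.5% and 13.5% in n-Braf and 9.95%, 12.1% and 10.4% in the controls.

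**Figure D3:**
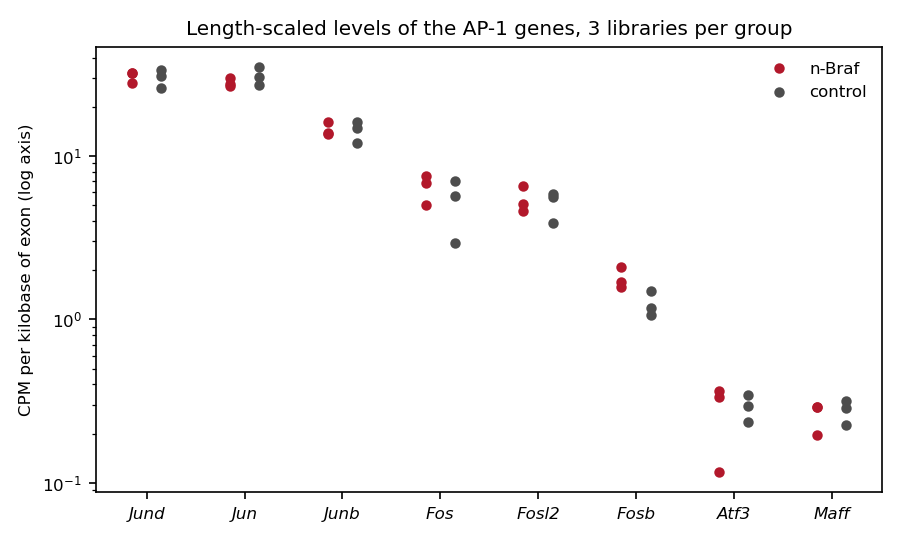
Levels of the AP-1 genes per kilobase of annotated exon (log axis) in the 3 libraries of each group, ordered by their mean. Jund and Jun lie together at the top, Fos and Fosl2 overlap in the middle, Fosb is lower, and Atf3 and Maff lie below 0.364 CPM per kilobase.

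The members did not share a single ordering of the mice. Control 2 was the lowest library for Fos, Junb and Jund and the highest for Jun. Its log2 deviation from the mean of the 6 libraries was -0.93 for Fos, -0.25 for Junb and -0.23 for Jund, against 0.25 for Jun. n-Braf 2 was the highest for Fosb and Fosl2, at 0.50 and 0.34. By the rule used for likeness to Fos over the 6 libraries, the 5 closest of 11705 genes with a mean of at least 5 CPM were Pdss1, Myo1c, Nln, Stoml2 and B3gat3, with Pearson r between 0.982 and 0.987. With so many genes set against 6 points this is a description only.

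**Figure D4:**
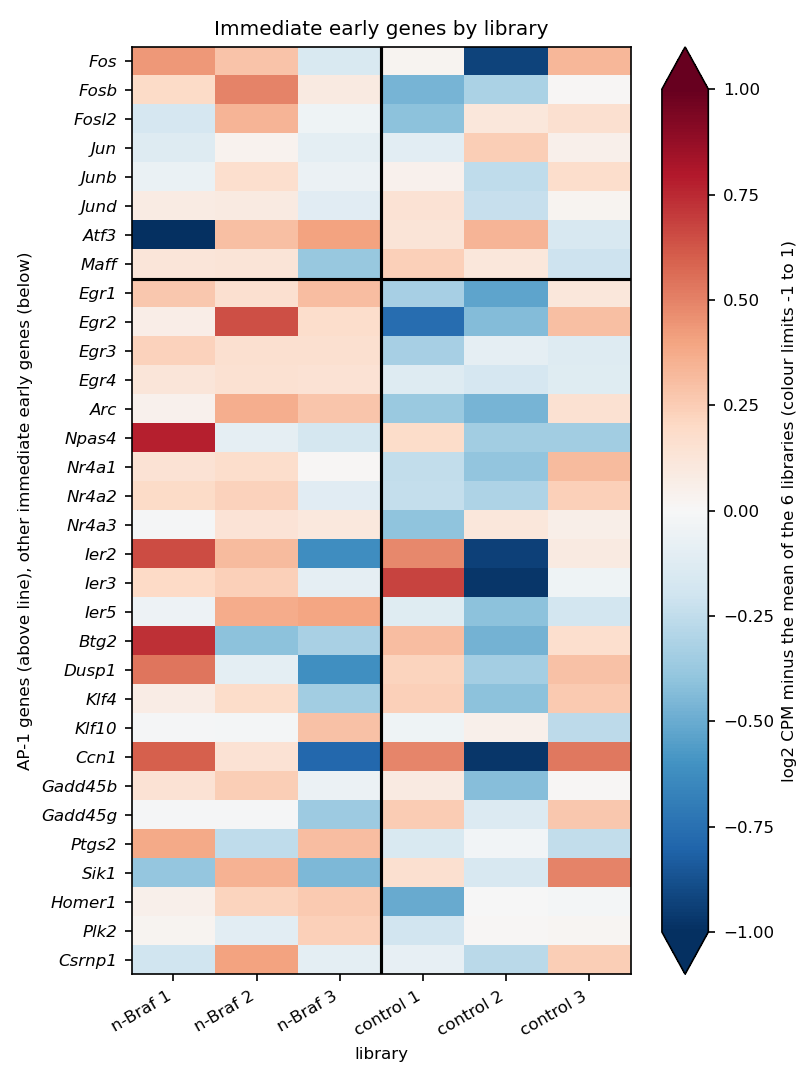
Log2 CPM of each gene minus its mean over the 6 libraries (colour), for the 8 AP-1 genes above the line and 24 other immediate early genes below it, with n-Braf libraries left of the controls. Control 2 is the lowest library for 13 of the 24 other genes and for 3 of the 8 AP-1 genes. n-Braf 1 and control 1 are each the lowest for 2 of the 8. The share of all genes lowest in control 2 was not computed.

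Other immediate early genes give the setting for Fosb and Fos. Of 24 tested, 0 passed over all genes with edgeR, while DESeq2 called Egr3 at an adjusted p of 0.0234. Their fitted log2 fold change was above 0 in 19 and below 0 in 5, with a median of 0.19, and 5 of the 24 had every n-Braf library above every control, where 6.09% of all genes did. Egr1, an ERK-induced zinc finger factor, averaged 109.9 ± 6.00 CPM in n-Braf against 79.3 ± 18.6 CPM in controls (SD, n = 3 each), with an edgeR adjusted p of 0.563. Its log2 fold change was 0.47 with all libraries, 0.14 against control 3 alone and 0.13 with the choroid plexus covariate. Among its relatives, the log2 fold change was 0.36 (SE 0.07) for Egr3 and 0.28 (SE 0.09) for Egr4, and Ier5, an immediate early response gene, was at 0.49 (SE 0.13). Unlike Egr1, these genes changed little against control 3 alone, at 0.31 for Egr3, 0.26 for Egr4 and 0.44 for Ier5. With the choroid plexus covariate they were at 0.28, 0.27 and 0.48. Control 2 was the lowest library for 13 of the 24 and the highest for 0 of them, though the matching share over all genes was not computed. For Egr1 the n-Braf libraries were at 103 to 115 CPM, control 3 lay just below them, and controls 1 and 2 were at 73.5 and 64.2 CPM. Control 3 was not the nearest control for every gene. For Egr3, control 2 was at 70.5 and control 3 at 68.8 CPM. For Ier5, control 1 was at 26.4 and control 3 at 25.2 CPM.

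Genes upstream of AP-1 and its bZIP relatives gave no call. Of 14 kinases and scaffolds that act on JUN and FOS, 0 passed over all genes, with 10 higher and 4 lower and a median of 0.08 on the log2 scale. Mapk10, which encodes the neuronal kinase JNK3, had a log2 fold change of 0.21 (SE 0.06), Rps6ka3, which encodes RSK2, of 0.29 (SE 0.07), and Rps6ka5, which encodes MSK1, of -0.30 (SE 0.09). Over the whole list the groups did not overlap in 4 of 14 genes, 3 with n-Braf above and 1 with n-Braf below, where 11.5% of all genes had groups apart in either direction. Mapk8, which encodes JNK1, was at 0.15 (SE 0.07) with groups that overlapped, and at 0.07 against control 3 alone. Of 11 genes of SRF, its ternary complex factors and coactivators, 0 passed, with 8 higher and 3 lower and a median of 0.06, and Srf was at 0.19 (SE 0.10), or 0.36 against control 3 alone. Of 15 other AP-1 family bZIP genes 0 passed, with 8 higher and 7 lower and a median of 0.05. Among them Atf2, a JUN partner, was at 0.13 (SE 0.06), Nfe2l2, the oxidative stress factor NRF2, at -0.34 (SE 0.17) and Bach2 at 0.26 (SE 0.14), or -0.019 against control 3 alone. Of 16 CREB, ATF and C/EBP factors 0 passed, with 3 higher and 13 lower and a median of -0.05, and Creb3l1 was at -0.47 (SE 0.22). Of 5 genes listed for JUN turnover 0 passed, all 5 with fitted values above 0 and a median of 0.10. The highest of them, at 0.29 (SE 0.41), was Cdkn3, with 8 to 16 expected counts per library. Cdkn3 is a cell cycle phosphatase gene rather than one known for JUN turnover. Of 10 heat shock and handling stress genes 0 passed, with 2 higher and 8 lower and a median of -0.04, and they summed to 2929 to 3363 CPM in n-Braf against 2905 to 3366 CPM in controls.

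Genes known from general literature as targets of FOS or FOSB had 0 of 12 past the threshold, 10 being higher and 2 lower, and their median was 0.04 on the log2 scale. Nptx2, a secreted pentraxin of excitatory synapses, averaged 13.0 ± 1.51 CPM in n-Braf against 8.58 ± 1.03 CPM in controls (SD, n = 3 each). Pdyn, the dynorphin precursor gene, averaged 2.75 ± 1.16 CPM in n-Braf against 4.51 ± 0.971 CPM in controls. Calb1, the calbindin gene that FOSB represses in dentate granule cells, averaged 57.6 ± 6.32 CPM in n-Braf against 47.9 ± 4.95 CPM in controls. Its groups overlapped, and its log2 fold change ran from 0.12 to 0.33 over 19 alternatives. It is also among the dentate granule and excitatory neuron markers counted above, so it is not a separate readout of FOSB. The edgeR adjusted p was 0.527 for Nptx2, 0.730 for Pdyn and 0.685 for Calb1. Ccnd1, the cyclin D1 gene, had a log2 fold change of 0.19 (SE 0.10).

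**Figure D5:**
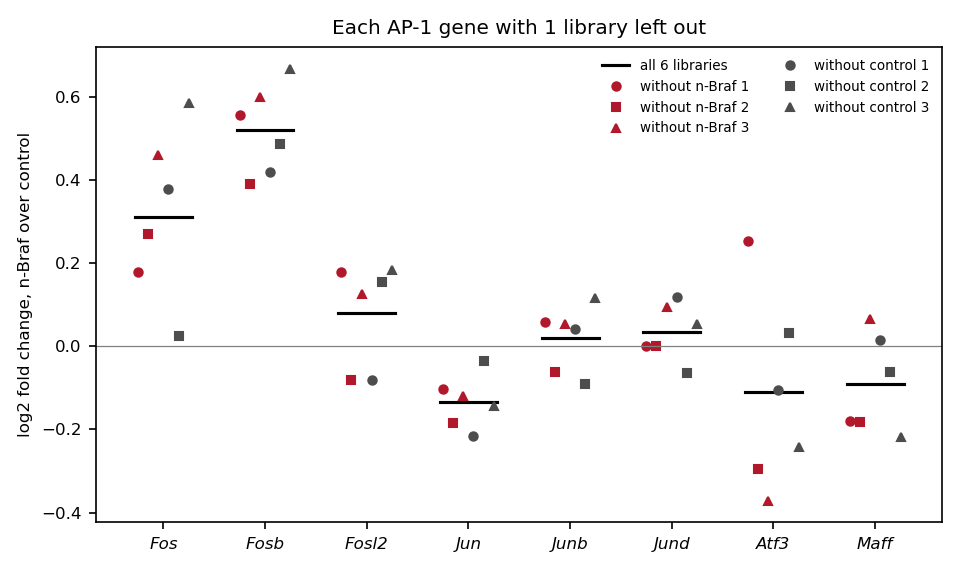
Fitted log2 fold change of n-Braf over control for each AP-1 gene with all 6 libraries (black line) and with 1 library left out (markers, red for n-Braf and grey for control). Fosb stays between 0.39 and 0.67 and Jun between -0.22 and -0.04, while Fos is 0.02 without control 2.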

How the data were processed

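Per the labels' protocols, 10 ng of hippocampal RNA per mouse went into a stranded SMART-Seq kit. Per the submitters' processing notes, the authors used bcl2fastq 2.20, fastp 0.20.1, STAR, RSEM and edgeR 3.36.0 on mm10. The annotation and strand setting are not given in the sources used here. Deposited values are RSEM expected counts for each gene, estimates that share ambiguous reads among genes. The same table holds the authors' log2 fold change, mean log2 CPM, p-value and adjusted p-value.

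Expected counts were rounded. filterByExpr of edgeR 4.0.16 (minimum count 10) kept 20604 genes. Libraries were scaled with TMM (trimmed mean of M-values), and edgeR's quasi-likelihood test (legacy settings, R 4.3.3) compared 3 n-Braf with 3 control libraries, with group as the only term and Benjamini-Hochberg adjustment over all genes. The standard error is the log2 fold change over the root of F. Members, lists and alternatives were chosen with earlier results of these data known. Besides the members, up to 4 genes per list with the smallest unadjusted p were eligible to be named. Of these only ones with p under 0.1 are given, apart from Cdkn3. Alternatives used other scalings, filters, DESeq2 1.42.0, limma-voom (limma 3.58.1), covariates and fewer libraries. Positions come from GENCODE M21, matched by gene identifier for 20125 genes, and promoters from RefSeq. The 95% intervals of fold changes come from that standard error and include the spread between mice.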

Additional observations from a re-analysis of the deposited data

How the results depend on the processing

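The count of members past the threshold was 0 under all 20 alternatives, while over all genes DESeq2 called 79, an adjusted p of 0.1 gave 2, the neocortex covariate 8, control 3 alone 3 and quasi-likelihood without legacy settings, chosen after seeing the data, 1. Leaving out 1 library at a time gave 0 to 82 genes, the 82 without control 3. The members' median log2 fold change was 0.19 with age as a covariate and -0.07 to 0.12 with 1 library left out. The number of members above 0 was 2 without n-Braf 2 and 3 against control 3 alone, instead of 5. Fosb and Jun kept their direction in all 19 alternatives, Fosb between 0.26 and 0.86 (unadjusted p 0.000988 to 0.252, adjusted p from 0.251 up) and Jun between -0.22 and -0.04. For Fosb, edgeR gave an unadjusted p of 0.252 with the choroid plexus covariate, 0.236 against control 3 alone and 0.0520 without n-Braf 2, where its log2 fold change was 0.39.

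With age as a covariate Maff was at 0.034 and Camk2a at -0.10. With the choroid plexus covariate Fos was at -0.047, Fosl2 at -0.13, Junb at -0.12, Atf3 at 0.22, Maff at 0.25 and Bach2 at -0.050. Against control 3 alone Fos was at -0.12, Fosl2 at -0.10, Junb at -0.16, Jund at -0.0021, Atf3 at 0.20, Maff at 0.21 and Bach2 at -0.019. With 1 library left out, the ranges were 0.02 to 0.59 for Fos, -0.082 to 0.18 for Fosl2, -0.092 to 0.12 for Junb, -0.063 to 0.12 for Jund, -0.37 to 0.25 for Atf3 and -0.22 to 0.065 for Maff. The cause of these turns was not tested.

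Beyond the members, Braf passed with DESeq2, the neocortex covariate and non-legacy settings and without control 3, Egr3 with DESeq2, and Egr1 without control 3 (adjusted p = 0.0222). A replicate block gave 0 genes and a Fosb log2 fold change of 0.52 and changed no call. Same-numbered mice did not deviate together (correlations of 0.10, -0.046 and -0.014), so there was no sign that the numbers pair them. With 3 mice per group this does not exclude pairing. Low counts and the spread between mice both limit Atf3 and Maff.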
